A study of Mus musculus with 4 samples.

Results

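The genes described here are histone deacetylases, sirtuins and other regulators of chromatin, read in mouse cardiac ventricle with and without extra serum response factor (SRF). They were chosen by name: gene symbols that begin with Hdac, Sirt, Kat, Brd, Ezh, Dnmt, Setd, Kdm, Cbx, Chd, Hmga, Hmgb or Hmgn followed by a digit, or with Smarc, leaving out Kdm5c, Kdm5d and Kdm6a. This gave 55 of the 8251 genes that the array's annotation names by a single symbol, read by 71 probe sets. For each gene the probe set with the highest mean over all 4 arrays was used.

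The transgenic mice overexpressed SRF moderately and only in the heart, and 2 ventricle samples came from them. The other 2 ventricle samples came from non-transgenic mice, and the mice of both groups were 6 months old. The promoter that drives the transgene, the strain and the number of animals per sample were not stated in the labels, so p-values here measure no more than how these samples scatter, and that scatter could be technical. Each sample was total RNA labelled with biotin and hybridised to 1 Affymetrix array, and signals are the deposited intensities on a linear scale.

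CArG boxes are the short DNA elements through which SRF acts on cytoskeletal, muscle and immediate early genes. Acetylation of histone tails loosens chromatin: acetyltransferases add the mark, deacetylases remove it and bromodomain proteins bind it. Methylation of histones or DNA is set, erased and read by further families, and remodellers use ATP to move nucleosomes. In cardiac muscle, class IIa deacetylases hold back MEF2 and other factors that drive hypertrophic growth, and stress kinases send them out of the nucleus. Acetyltransferases and the SWI/SNF complexes act as coactivators of muscle genes.

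The Srf gene was not analysed here and the transgene is known from the labels alone. The median signal was 49.1 and 50.7 on the transgenic arrays, against 54.0 and 52.5 on the non-transgenic arrays. Log2 signals of tested probe sets correlated at 0.981 between the transgenic arrays and 0.971 between the non-transgenic arrays, and at 0.942 to 0.949 across the groups, as a description across probe sets. All 10 measured cardiomyocyte markers lay above the filter, as the ventricle label asks for, and 7 of them were lower in transgenic samples (summed signal 70804 and 70941 in transgenic, 89706 and 88929 in non-transgenic samples). Fibroblast markers were higher in 9 of 12 cases (summed signal 12311 to 12898 in transgenic against 7525 to 7716 in non-transgenic samples). Macrophage markers were higher in 5 of 11 tested (4221 to 4302 against 2600 to 2852, summed over all 12 measured). In either list 0 were lower in limma (1 and 0 at an unadjusted p below 0.05). The summed signal of 9 hepatocyte markers was 224.0 to 276 in transgenic against 2445 to 4770 in non-transgenic samples, and 6 of 7 tested were lower. Of these 6 calls 4 passed the filter only through the high non-transgenic samples. The other two were Alb (50.3 and 35.7 in transgenic, 856 and 1738 in non-transgenic samples) and Cyp2e1. Of 11 endothelial markers 1 was higher and 1 lower (4249 to 4282 in transgenic against 3944 to 3996 in non-transgenic samples), and of 3 tested lymphocyte markers 0 were called in limma (1 at an unadjusted p below 0.05). No marker was listed at 0. The part of these other cells in the results below was not tested, and in bulk tissue fewer cells of a type and less RNA per cell cannot be told apart.

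The acetyltransferase Kat2a and the bromodomain protein Brd7 rose in transgenic ventricle, and no other of the 55 genes passed the test. The same samples had higher fibroblast and macrophage markers and lower cardiomyocyte and hepatocyte markers, and the part of these cells was not tested. Of the 55 genes, 41 lay above a filter that left out the lowest 40% of probe sets by mean over all arrays, and 14 did not and were not tested. In limma with Benjamini-Hochberg adjustment over all 7453 tested probe sets, at an adjusted p threshold of 0.05, 2 of the 41 were higher, 0 were lower and 39 did not pass. Over all tested probe sets 4.07% were higher and 3.86% lower, and 7.93% were called in either direction, beside 4.88% of these genes. An unadjusted p below 0.05 was seen for 6 of the 41, namely Brd7, Kat2a, Sirt3, Chd4, Ezh1 and Smarca4, 4 of them higher and 2 lower, while 24.2% of all tested probe sets had such a p.

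**Figure D1:**
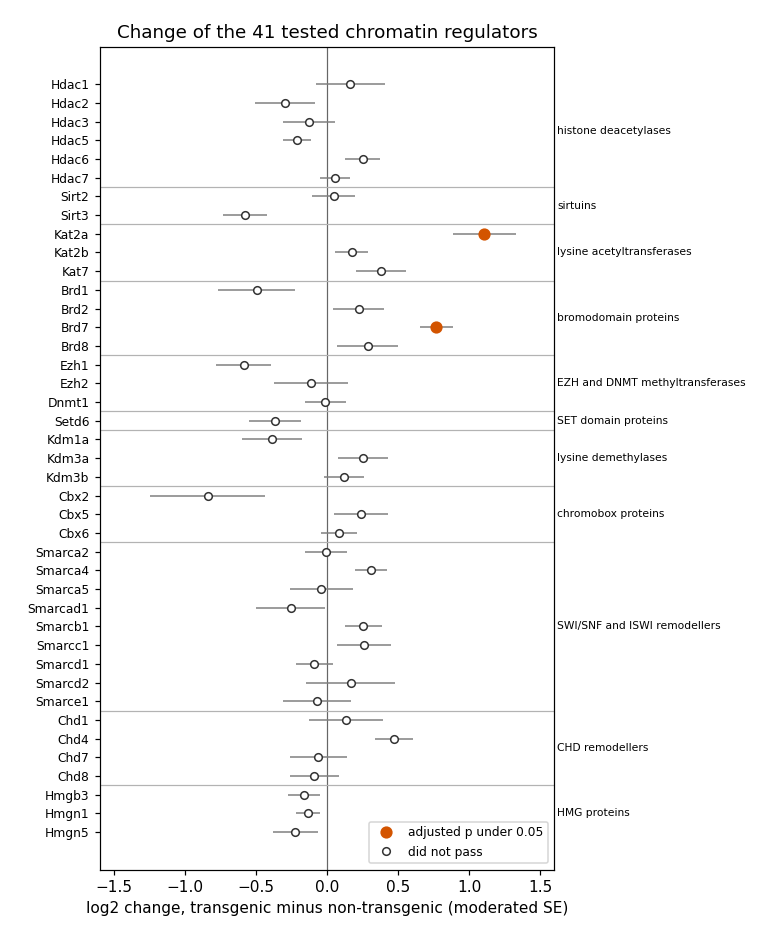
Log2 change (transgenic minus non-transgenic, horizontal axis) with its moderated standard error for the 41 tested chromatin regulators, grouped by family, from 2 arrays per group. Filled points passed the adjusted p threshold: Kat2a at 1.11 and Brd7 at 0.77 lie to the right of all others, and Cbx2 at -0.84 lies farthest to the left with the longest error bar.

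As a group the genes were centred on no change. The median log2 change was -0.01, the same as the median over all tested probe sets (-0.01), with a range of -0.84 to 1.11. A change of less than 1.5-fold was measured for 37 of the 41 (90.2%), against 87.8% of all tested probe sets. Signals of the 2 groups did not overlap for 25 of the 41, 13 higher and 12 lower in transgenic samples. That share (61.0%) lies near the 55.9% over all tested probe sets, of which 27.8% were higher and 28.1% lower. An exact permutation test of a single gene cannot go below p = 0.333 with 2 against 2 arrays.

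**Figure D2:**
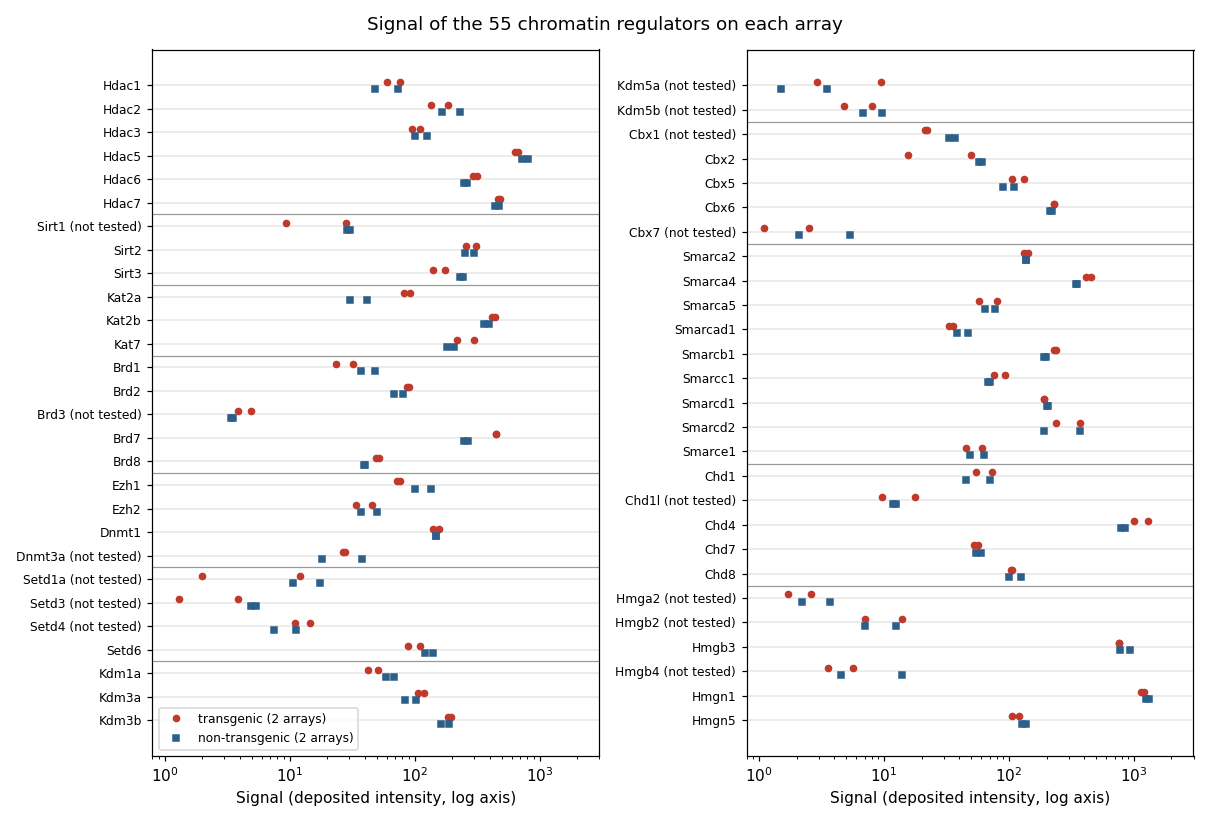
Signal of each of the 55 genes on every array (deposited intensity, log axis), with transgenic arrays as circles drawn above the non-transgenic arrays as squares, and lines between families. The circles of Kat2a and Brd7 lie clear to the right of the squares and those of Sirt3 and Ezh1 to the left. These are among the 25 of 41 tested genes whose groups did not overlap.

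The histone deacetylases remove acetyl groups from lysines, and none of the 6 measured members passed the test in limma (0 also at an unadjusted p below 0.05). Hdac5, a class IIa deacetylase that binds MEF2 and leaves the nucleus when phosphorylated, had signals of 640 and 671 in transgenic samples, against 722 and 802 in non-transgenic samples. Both transgenic values lay below both non-transgenic ones. The log2 change was -0.21 ± 0.10 (SE), with a 95% interval of -0.45 to 0.03 and an adjusted p of 0.253 in limma. Hdac7, the other class IIa member measured, is known for its part in endothelial cells. Its signals were 466 and 482 in transgenic and 437 and 476 in non-transgenic samples, which overlapped (log2 change 0.05, interval -0.20 to 0.31).

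Hdac6, a mostly cytoplasmic enzyme that deacetylates tubulin, read 295 and 316 in transgenic samples, against 264 and 248 in non-transgenic samples. The groups did not overlap, but the change of 0.25 ± 0.12 (interval -0.04 to 0.54) had an adjusted p of 0.263 in limma. The class I enzymes are catalytic subunits of nuclear corepressor complexes. Hdac1 read 76.7 and 60.3 in transgenic samples, against 73.1 and 48.7 in non-transgenic samples. Hdac2 read 136 and 184 in transgenic samples, against 166 and 232 in non-transgenic samples. Hdac3, the enzyme of the NCoR and SMRT complexes, read 110 and 95.8 in transgenic samples, against 101 and 127 in non-transgenic samples. In each of these class I genes the groups overlapped. Their log2 changes were 0.16, -0.30 and -0.13, with intervals that reached from -0.80 at the lowest to 0.74 at the highest. Changes of up to 1.67-fold upward for Hdac1 or down to 0.576 of the non-transgenic level for Hdac2 lie within these intervals.

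Sirtuins are deacetylases that need NAD. Sirt3, the main deacetylase of the mitochondrial matrix, read 174 and 139 in transgenic samples, against 245 and 229 in non-transgenic samples. The transgenic values were lower without overlap, and the log2 change was -0.58 ± 0.16 (interval -0.94 to -0.21), which did not pass in limma (adjusted p = 0.0733). Under a stricter filter, which dropped 60% of probe sets, the adjusted p was 0.0482, and with single arrays left out it ran from 0.0757 to 0.267. Sirt2, which is mostly cytosolic, read 313 and 258 in transgenic and 253 and 298 in non-transgenic samples (log2 change 0.05). Sirt1, the nuclear sirtuin, lay below the filter: it read 9.4 and 28.3 in transgenic samples, against 30.5 and 28.8 in non-transgenic samples.

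Of the 3 acetyltransferases, Kat2a rose. Kat2a (GCN5) is the catalytic subunit of the SAGA and ATAC coactivator complexes. It read 82.6 and 91.4 in transgenic samples, against 30.4 and 41.3 in non-transgenic samples. Both transgenic arrays stood far above both non-transgenic arrays. The rise was 2.15-fold, a log2 change of 1.11 ± 0.22 (interval 0.58 to 1.63) with an adjusted p of 0.0297 in limma. When single arrays were dropped, the call ended for transgenic replicate 1 (adjusted p = 0.101 in limma), transgenic replicate 2 (0.131) and non-transgenic replicate 1 (0.0704), while the log2 change stayed between 0.93 and 1.28. It also ended with no filter on dim probe sets (0.0861), without a variance trend (0.0657) and in an ordinary two-sample test (0.277).

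The related Kat2b (PCAF) did not pass, at 437 and 414 in transgenic samples, against 397 and 358 in non-transgenic samples. Its log2 change was 0.17 ± 0.11 (interval -0.10 to 0.44). Kat7 (HBO1), which acetylates histones in complexes with ING and BRPF proteins, read 218 and 299 in transgenic samples, against 183 and 205 in non-transgenic samples. The change was 0.38 ± 0.18 (adjusted p = 0.242 in limma). A second, dim probe set for Kat7 gave -0.03. In all 3 acetyltransferases the transgenic values lay above the non-transgenic ones, as they did for 27.8% of all tested probe sets.

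Among bromodomain proteins, Brd7 rose. Brd7 is a subunit of PBAF, a form of the SWI/SNF remodelling complex. It read 446 and 447 in transgenic samples, against 268 and 249 in non-transgenic samples. The transgenic arrays agreed closely and stood well above both others. The rise was 1.71-fold, a log2 change of 0.77 ± 0.11 (interval 0.50 to 1.04) with an adjusted p of 0.0118 in limma. It passed without any 1 of the 4 arrays (adjusted p 0.0242 to 0.0413 in limma), but not without a variance trend (0.0669) or in an ordinary two-sample test (0.210). Its probe set is of a kind that Affymetrix marks as matching more than a single transcript. A second probe set without that mark read 44.8 and 41.9 in transgenic samples, against 28.5 and 21.2 in non-transgenic samples. It did not pass (adjusted p = 0.193 in limma), and it was tested only through the transgenic samples, since its non-transgenic mean lay under the filter at a signal of 30.02. The remaining probe set read 0.8 and 0.2 in transgenic and 0.6 and 6.4 in non-transgenic samples, below the filter.

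The remaining bromodomain genes did not pass. Brd2, a BET protein that binds acetylated histones, read 87.3 and 90.4 in transgenic and 69.1 and 81.2 in non-transgenic samples. Brd8, a subunit of the TIP60 acetyltransferase complex, read 48.8 and 51.8 in transgenic and 39.5 and 39.9 in non-transgenic samples. Their log2 changes were 0.22 and 0.28, with groups that did not overlap. Brd1, a scaffold of acetyltransferase complexes, went the other way at -0.50 ± 0.27 (23.4 and 32.2 in transgenic samples, against 48.4 and 37.2 in non-transgenic samples; adjusted p = 0.312 in limma), and it was tested only through the non-transgenic samples.

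The sequences before the starts of Kat2a and Brd7 are shown because these are the 2 genes that passed the test. They are the 250 bases before the annotated start in GRCm38.p6, from RefSeq, written 5′ to 3′ on the gene's strand, and capitals mark the GC box (GGGCGG on either strand). Kat2a lies on the minus strand at chr11:100712468-100712717 and Brd7 on the minus strand at chr8:88362173-88362422.
Kat2a: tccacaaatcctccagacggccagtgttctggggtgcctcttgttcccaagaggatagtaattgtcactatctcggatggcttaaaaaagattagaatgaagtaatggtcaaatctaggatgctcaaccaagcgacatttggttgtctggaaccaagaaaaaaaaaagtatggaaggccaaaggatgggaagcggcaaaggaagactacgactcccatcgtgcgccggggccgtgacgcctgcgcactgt
Brd7: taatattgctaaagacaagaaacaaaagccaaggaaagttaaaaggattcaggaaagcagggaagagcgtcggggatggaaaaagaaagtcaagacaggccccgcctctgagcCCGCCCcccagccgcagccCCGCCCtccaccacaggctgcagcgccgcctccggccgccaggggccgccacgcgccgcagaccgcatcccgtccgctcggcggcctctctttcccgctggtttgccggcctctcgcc
The windows differ in composition: guanine and cytosine make up 48.8% of that of Kat2a, with 0 GC boxes, and 64.0% of that of Brd7, with 2 GC boxes. Neither holds a CArG box.

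Windows of 250 bases before and 50 after the start were at hand for 46 of the 55 genes, 63 windows in all. A CArG box was found in 0 of the 46 genes, against 1.92% of 6576 genes on the array; the element reads alike on both strands. A CArG box with at most 1 letter off was found in 13 of them (28.3%), against 21.9% of genes on the array, so a match of this kind is common. The matches of Hdac5, Ezh1 and Chd4, which begin 42, 235 and 133 bases before the start, are shown in capitals with 10 bases on either side, as the deacetylase and the genes with an unadjusted p below 0.05 that had such a match before the start (GRCm38.p6; Hdac5 minus strand at chr11:102230195-102230224, Ezh1 minus strand at chr11:101226679-101226708, Chd4 plus strand at chr6:125096020-125096049).
Hdac5: cggttgaagcCCGAAAAAGGgggggtctga
Ezh1: aggctgtcttCCAAAATTTGacttgtaagt
Chd4: gcccgggagaCCTAAAGAGGagggtggcgg
These matches describe letters only and were not tested for binding. Before the start, 34 of the 46 genes (73.9%) had a GC box, against 58.9% on the array, 21 (45.7%) a CCAAT box (CCAAT), against 2632 of 6576, and 1 (2.17%) a TATA box (TATAAA), against 10.9%, all on either strand. The median ratio of observed to expected CpG was 0.917 in windows of these genes and 0.749 on the array, each gene taken by its highest window.

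The tested Ezh, Dnmt and Setd methyltransferases held no call in limma, and among them Ezh1 alone had an unadjusted p below 0.05. Ezh1, a catalytic subunit of Polycomb repressive complex PRC2 that is kept in non-dividing tissue, read 76.7 and 72.6 in transgenic samples, against 101 and 135 in non-transgenic samples. The transgenic values were lower without overlap, and the log2 change of -0.59 ± 0.19 (interval -1.05 to -0.13) did not pass (adjusted p = 0.122 in limma). Without single arrays the change ran from -0.78 to -0.39. Its paralogue Ezh2, typical of dividing cells, read 33.9 and 45.5 in transgenic and 37.6 and 49.9 in non-transgenic samples. Dnmt1, which copies DNA methylation after replication, read 140 and 156 in transgenic and 149 and 149 in non-transgenic samples. Both pairs overlapped (log2 changes -0.12 and -0.01). Of 9 tested markers of dividing cells 0 were called in limma. An unadjusted p below 0.05 in limma was seen for 3 of them, 2 higher and 1 lower. The summed signal of all 14 measured was 978 to 1006.5 in transgenic against 852 to 879 in non-transgenic samples. Setd6, a lysine methyltransferase, had a change of -0.37 ± 0.18 (88.2 and 111 in transgenic samples, against 120 and 141 in non-transgenic samples; adjusted p = 0.265 in limma).

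The demethylases and chromobox readers did not pass either. Kdm1a (LSD1), which works with Hdac1 and Hdac2 in the CoREST complex, read 42.6 and 50.8 in transgenic samples, against 59.4 and 68.3 in non-transgenic samples. Its change of -0.39 ± 0.21 had an adjusted p of 0.313 in limma. Kdm3a, a JmjC demethylase, read 106 and 120 in transgenic samples, against 103 and 84.5 in non-transgenic samples (log2 change 0.25), and its relative Kdm3b had a change of 0.12. Cbx2, a Polycomb chromobox protein, had the lowest value of the 41 at -0.84 ± 0.40, but this rested on transgenic replicate 2: it read 49.9 and 15.6 in transgenic samples, against 57.9 and 60.7 in non-transgenic samples. Without that array the change was -0.21. Cbx2 was tested only through the non-transgenic samples, since its transgenic mean on the log2 scale of the filter lay under the filter. A second, dimmer probe set below the filter read 7.6 and 16.2 in transgenic samples, against 65.6 and 23.2 in non-transgenic samples, also without overlap. Cbx5 (HP1 alpha), which binds methylated histones in heterochromatin, had a change of 0.24 by one probe set and -0.18 by another. Cbx6 likewise gave 0.08 and -0.31. None of these passed.

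Nucleosome remodellers were the most numerous, with 13 tested and 0 called in limma (2 at an unadjusted p below 0.05). Smarca4 (BRG1), an ATPase of SWI/SNF known in mice for its part in the myosin switch of the stressed heart, read 452 and 417 in transgenic samples, against 347 and 350 in non-transgenic samples. The groups did not overlap, and the change was 0.31 ± 0.11 (interval 0.05 to 0.57; adjusted p = 0.149 in limma). A dim second probe set below the filter went the other way, at 2.2 and 13.6 in transgenic samples, against 35.8 and 15.1 in non-transgenic samples. The alternative ATPase Smarca2 (BRM) read 141 and 132 in transgenic and 138 and 137 in non-transgenic samples, a change of -0.01 (interval -0.35 to 0.33). Whether the 2 ATPases differ in their change was not tested. Smarcb1, a core subunit, read 228 and 240 in transgenic samples, against 199 and 190 in non-transgenic samples (log2 change 0.25 ± 0.13). Smarcc1, another core subunit, had a change of 0.26. Smarca5, the ATPase of ISWI complexes, had -0.04, and Smarcad1, Smarcd1 and Smarce1 had -0.26, -0.09 and -0.07. Smarcd2 was read by 4 probe sets that disagreed: the one used for it varied within groups (240.1 and 373 in transgenic, 367 and 192 in non-transgenic samples), and the next 2 gave 0.32 and -0.29.

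Chd4, the ATPase of the NuRD complex that holds Hdac1 and Hdac2, read 1291 and 994 in transgenic samples, against 843 and 786 in non-transgenic samples. Both transgenic values were higher, and replicate 1 stood apart. The change of 0.47 ± 0.13 (interval 0.16 to 0.79) did not pass (adjusted p = 0.0842 in limma). It passed without transgenic replicate 2 (0.66, adjusted p = 0.0213 in limma) and fell short without transgenic replicate 1 (0.29, 0.332). Its probe set is of a kind marked for gene families. Chd1, Chd7 and Chd8 had changes of 0.13, -0.06 and -0.09, with overlapping groups.

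**Figure D3:**
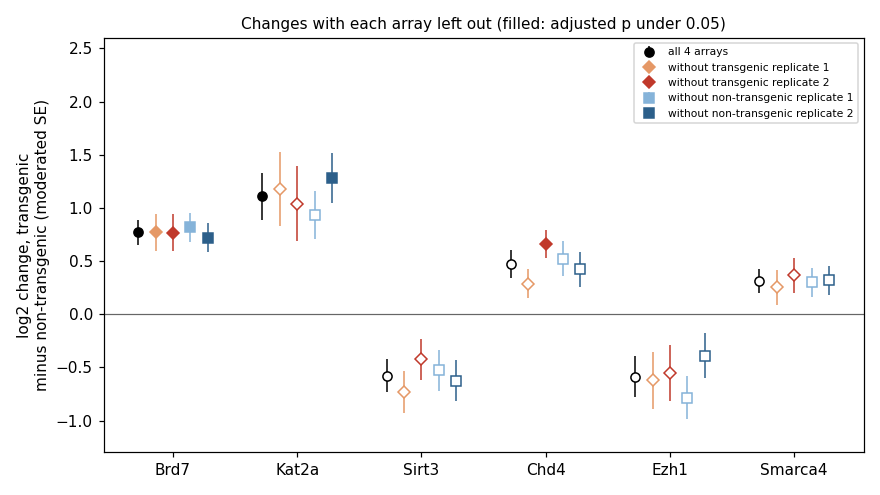
Log2 change with its moderated standard error for the 6 genes with an unadjusted p below 0.05, with all 4 arrays and with each array left out in turn. Filled symbols passed the adjusted p threshold: all 5 for Brd7, 2 for Kat2a and 1 for Chd4, while Sirt3, Ezh1 and Smarca4 kept their sign without a call.

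HMG proteins bend DNA or bind nucleosomes without enzyme activity. Hmgn1, a nucleosome binding protein, read 1150 and 1196 in transgenic samples, against 1318 and 1258 in non-transgenic samples. Hmgb3, a DNA bending protein, read 754 and 759 in transgenic and 930 and 774 in non-transgenic samples. Hmgn5, another nucleosome binder, read 120 and 105 in transgenic and 128 and 137 in non-transgenic samples. In all 3 the transgenic values were lower without overlap, as for 28.1% of all tested probe sets, and none passed, with log2 changes of -0.13, -0.16 and -0.22 and adjusted p values of 0.375, 0.424 and 0.435 in limma.

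Below the filter lay Sirt1, Brd3, Dnmt3a, Setd1a, Setd3, Setd4, Kdm5a, Kdm5b, Cbx1, Cbx7, Chd1l, Hmga2, Hmgb2 and Hmgb4. Of these, Cbx1 (HP1 beta) was nearest to the limit, at 22.2 and 21.3 in transgenic samples, against 37.3 and 33.3 in non-transgenic samples. Brd1 and Smarcad1 were the nearest above it. No order is read from signals this low.

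**Figure D4:**
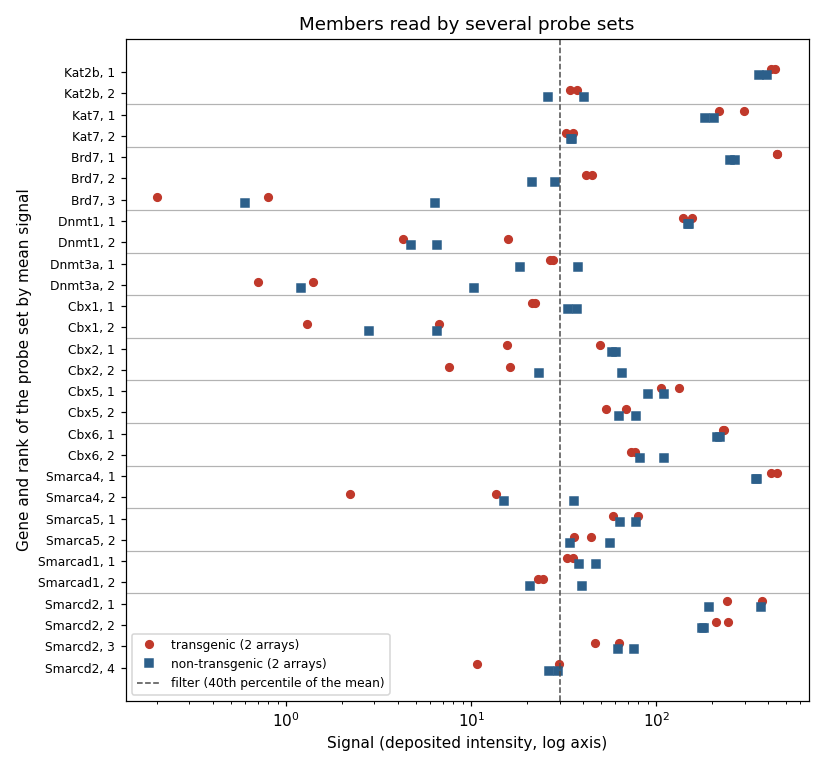
Signal on every array (log axis) for the 13 genes read by several probe sets, numbered by rank of mean signal, with transgenic arrays as circles above non-transgenic arrays as squares and the filter near a signal of 30.02 as a broken line. Brd7 has circles to the right of squares in its first and second probe sets, while the probe sets of Cbx5, Cbx6 and Smarcd2 point in different directions.

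Partners of these genes were read from lists of complexes and pathways. Each partner was read by its brightest probe set alone. Of those called below, Gatad2a has 4 probe sets and Ywhag, Gtf3c4, Smyd1 and Ruvbl1 have 2 each. Their dimmer probe sets are not described here. Over the 6 partner lists, 6.25% to 11.5% of tested genes were called, near the 7.93% of all tested probe sets. At an unadjusted p below 0.05 in limma, 2 of 16 tested corepressor partners of the deacetylases were higher and 0 lower. By adjusted p in limma 1 rose and 0 fell (median log2 change 0.02). It was Gatad2a, a NuRD subunit, at 377 and 320 in transgenic samples, against 208 and 227 in non-transgenic samples (log2 change 0.65 ± 0.14, adjusted p = 0.0341 in limma). With each array dropped in turn, the call held only without transgenic replicate 2, and the adjusted p in limma reached 0.165. Rbbp4, a histone chaperone of the same complexes, had a change of 0.43 ± 0.16 that did not pass. In the circuit that moves class IIa deacetylases, 1 of 16 tested genes fell and 0 rose in limma (median 0.03). At an unadjusted p below 0.05 in limma 4 were higher and 3 lower, beside 11.8% and 12.3% of all tested probe sets. Ywhag, a 14-3-3 protein of the kind that binds phosphorylated deacetylases, read 1964 and 2057 in transgenic samples, against 3340 and 2786 in non-transgenic samples (-0.60 ± 0.10, adjusted p = 0.0162 in limma). It passed without any 1 array, but not without a variance trend (0.123) or in the ordinary two-sample test (0.312). The other 5 tested 14-3-3 genes had the opposite sign and did not pass. Ywhah had 0.49 ± 0.13 (adjusted p = 0.0667 in limma), Ywhaz 0.35 and Ywhaq 0.29, these 3 without overlap. Ywhab had 0.61 and Ywhae 0.07, with overlap. A further 14-3-3 gene, Sfn, lay below the filter and was not tested (27.2 and 40.8 in transgenic samples, against 8.3 and 14.8 in non-transgenic samples). The circuit had 1 higher call with each array centred on its median, with 60% of probe sets dropped, or without transgenic replicate 1.

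Of 11 other tested genes listed as acetyltransferases or members of their complexes, 1 fell and 0 rose in limma (median -0.09). At an unadjusted p below 0.05 in limma 1 was higher and 4 lower, beside 11.8% and 12.3% of all tested probe sets. Gtf3c4, a subunit of RNA polymerase III factor TFIIIC, read 24.6 and 24.7 in transgenic samples, against 68.2 and 67.6 in non-transgenic samples (-1.19 ± 0.22, adjusted p = 0.0235 in limma). It was tested only through the non-transgenic samples, as the transgenic mean lay under the filter, and the call ended without any 1 of the 4 arrays (0.0625 to 0.0856). Naa60, an N-terminal acetyltransferase, had a change of 0.35 ± 0.11 that did not pass. Among 25 tested Polycomb and other methylation genes, 1 rose and 1 fell (median 0.05). Bmi1, a Polycomb PRC1 subunit, rose to 513 and 692 in transgenic samples, against 316 and 319 in non-transgenic samples (0.89 ± 0.15, adjusted p = 0.0184 in limma). It lost its call without either non-transgenic array (up to 0.0513). Smyd1, a methyltransferase of striated muscle, fell to 675 and 594 in transgenic samples, against 955 and 1194 in non-transgenic samples (-0.75 ± 0.13, adjusted p = 0.0199 in limma), and lost its call without non-transgenic replicate 2 (0.0553).

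Among 26 other tested remodelling and histone chaperone genes, 2 rose and 1 fell (median 0.08). Ruvbl1, an AAA ATPase of the INO80 and TIP60 complexes, read 221 and 245 in transgenic samples, against 388 and 454 in non-transgenic samples (-0.83 ± 0.13, adjusted p = 0.0151 in limma). Without non-transgenic replicate 2 its adjusted p was 0.0521 in limma. The probe sets of Ruvbl1 and Gtf3c4, like those of Brd1, Brd2, Smarcad1 and Smarcd2, are marked by Affymetrix as chosen under relaxed rules. Ss18, a SWI/SNF subunit, rose to 168 and 143 in transgenic samples, against 63.8 and 90.6 in non-transgenic samples (0.94 ± 0.20), a call kept only without non-transgenic replicate 2. Anp32b, a histone chaperone, had 0.48 ± 0.11 and lost its call without any 1 array (adjusted p up to 0.208 in limma). Of 9 tested SRF cofactors, Hopx, a homeodomain protein known in mice to recruit deacetylase activity against SRF, read 1803 and 1847 in transgenic samples, against 3116 and 3439 in non-transgenic samples. It fell by 0.84 ± 0.08 on the log2 scale (adjusted p = 0.00213 in limma) and passed without any 1 array, but not without a variance trend (0.0657) or in the ordinary two-sample test (0.222). In that list 0 rose, and the median was -0.07. At an unadjusted p below 0.05 in limma 2 were higher and 1 lower. With each array centred on its median 1 SRF cofactor was called higher. Nkx2-5, a cardiac homeodomain factor, had 0.33 ± 0.09 and did not pass (adjusted p = 0.0760). Of the partner genes called, Gtf3c4 alone also passed without a variance trend (adjusted p = 0.0303 in limma), and none passed in the ordinary two-sample test.

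**Figure D5:**
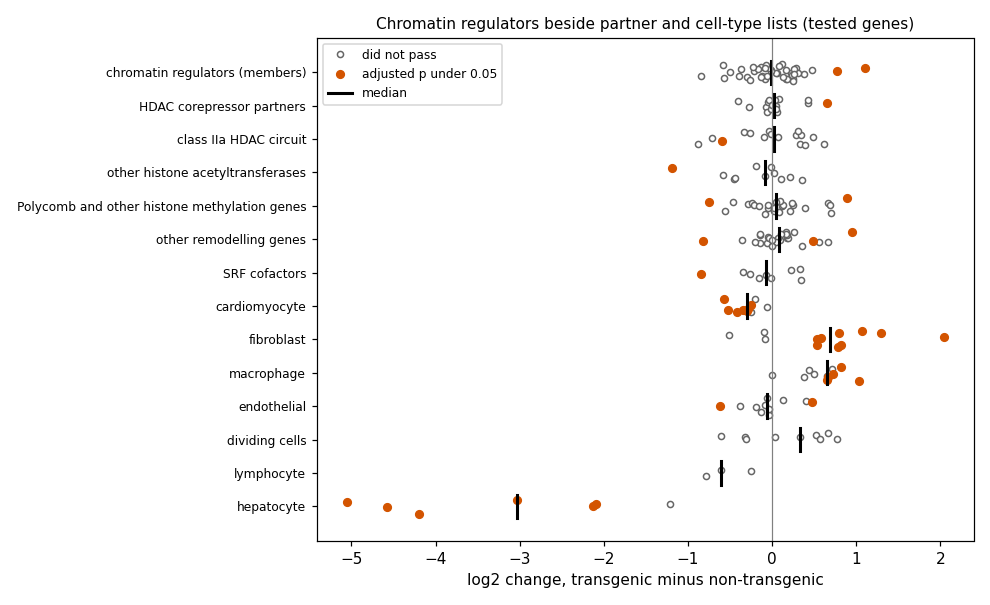
Log2 change (transgenic minus non-transgenic) of each tested gene among the chromatin regulators, 6 lists of partners and 7 lists of cell-type markers, with the median as a bar and called genes filled. The chromatin regulators and their partners lie around 0 with medians between -0.09 and 0.08, while the fibroblast and macrophage lists lie to the right and the hepatocyte list far to the left.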

How the data were processed

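Ventricle RNA of 2 transgenic and 2 non-transgenic mouse samples was read on 1 Affymetrix array each, and groups follow the labels. The deposited numbers are signal intensities on a linear scale, as judged from their range, and no label names the software or scaling behind them. The mean trimmed by 2% at each end was 149 on every array, which hides any shift common to most transcripts. Of 12488 probe sets 66 were controls. Of the rest, 10833 had 1 gene symbol in the platform annotation, 396 had several and 1193 were not listed. All 10839 gene numbers found in RefSeq kept their symbols.

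Values were taken as log2(value + 9), and a filter on the 4-array mean dropped the lowest 40% of probe sets and kept 7453. Fold changes on this scale understate those of dim genes. Groups were compared with lmFit and eBayes with a variance trend (limma 3.58.1, R 4.3.3) in a two-sided test, and p-values were adjusted by Benjamini-Hochberg over all tested probe sets. The prior carried 5.05 degrees of freedom beside 2 residual ones. SE and 95% intervals are moderated. The number of arrays limits the precision. Members, lists and tests were chosen with earlier results of these data known. Genes named were all deacetylases and sirtuins, genes past the threshold, up to 3 per other family by smallest p and the member with the highest mean signal, those whose probe sets disagree, those next to the filter and, per partner list, those past the threshold and up to 2 by smallest p. Other Smarc, Chd and Kdm members, Brd8 and all members below the filter were named for completeness. Alternatives were other pseudocounts, scalings, filters, variance models and thresholds, a replicate block, and leaving out each array.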

Additional observations from a re-analysis of the deposited data

How the results depend on the processing

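The number of chromatin regulators called depended on the variance model and on single arrays. For all tested probe sets, 303 were higher and 288 lower, of which 51.3% were higher; with each array centred on its median 66.8% were higher. With no filter the counts were 172 and 157, without a variance trend 44 and 34, with an ordinary two-sample test 0 and 0 (1175 at an unadjusted p below 0.05), and at a threshold of 0.1 they were 477 and 484. Without single arrays they ran from 125 to 232 higher and from 158 to 191 lower. Among the chromatin regulators, 1 was higher with no filter (Brd7, 55 tested). With the lowest 60% left out 1 was also higher (Brd7, 28 tested, Kat2a not among them). With the second probe set taken where a gene has several, 1 was higher (Kat2a). Kat2a has a single probe set, so its call there is the same one. Brd7 did not pass by its second probe set (adjusted p = 0.193 in limma). Of the 41, 0 were higher without a variance trend or with the ordinary test. An unadjusted p below 0.05 was seen for 7 of the 41 in limma without the trend and 5 in the ordinary test. Of all 7453 tested probe sets, 1654 and 1175 had such a p. Without single arrays 1 to 2 were higher and 0 lower. With the lowest 60% left out 1 was lower (Sirt3). At a threshold of 0.1, 3 were higher (Brd7, Kat2a and Chd4) and 1 lower (Sirt3).

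Replicate numbers are shared between the groups, but nothing in the labels pairs them, and the differences of replicate 1 minus 2 correlated at -0.06 between the groups. With the replicate block, 3 regulators of the 41 were higher and 0 lower, while 9.3% of all tested probe sets were called. The 3 were Brd7, Kat2a and Chd4, the last with a log2 change of 0.47 and an adjusted p of 0.0304 in limma.

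Signs changed only for genes without a call, 13 by another setting and 3 by the second probe set. After median centring the log2 changes were 0.0661 for Dnmt1, 0.0697 for Smarca2, 0.0369 for Smarca5, 0.0072 for Smarce1 and 0.0161 for Chd7, and after quantile normalization 0.0004 for Smarca5 and 0.004 for Chd7. Without single arrays the changes ran from -0.0913 to 0.42 for Hdac1, -0.28 to 0.0198 for Hdac3, -0.006 to 0.11 for Hdac7, -0.0891 to 0.18 for Sirt2, -0.29 to 0.057 for Ezh2, -0.086 to 0.0586 for Dnmt1, -0.0563 to 0.036 for Smarca2, -0.25 to 0.16 for Smarca5, -0.29 to 0.62 for Smarcd2, -0.26 to 0.11 for Smarce1, -0.13 to 0.40 for Chd1 and -0.24 to 0.0553 for Chd8. The second probe set gave -0.0306 for Kat7, -0.18 for Cbx5 and -0.31 for Cbx6. The causes were not tested.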
